A study of Mus musculus with 384 samples.

Results

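The genes examined here are 6 markers of glutamate and GABA release in dopamine (DA) neurons, chosen by name: the vesicular glutamate transporter genes *Slc17a6*, *Slc17a7*, and *Slc17a8*, the glutamate decarboxylase genes *Gad1* and *Gad2*, and the vesicular GABA transporter gene *Slc32a1*. They are 6 of 26749 genes with a read in the deposited count table. They were read in the 209 of 384 cells with at least 500000 reads counted on genes (median 780466, range 500672–1544810). A count of 10 reads or more made a cell positive (+) for a gene. A glutamate-marker cell was positive for at least 1 *Slc17a* gene, and a GABA-marker cell for *Gad1*, *Gad2*, or *Slc32a1*.

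The cells came from 8 untreated C57BL6/J mice carrying DAT-IRES-Cre, which drives Cre from the dopamine transporter locus, and the tdTomato reporter Ai9. By the labels, mice 1, 4, and 6 were female (P25, P33, and P36) and mice 2, 3, 5, 7, and 8 were male (P27, P27, P28, P24, and P24), while the series description gives other numbers of each sex and another age range. Live tdTomato+ cells were sorted from midbrain tissue that included the hypothalamus, and each mouse filled 1 Fluidigm C1 chip, so mouse and chip run cannot be told apart. The reporter also marks cells that expressed Cre only in the past, and the labels do not say from which region a single cell came. Between 12 and 45 cells per mouse were used, no sequencing barcode was shared by 2 cells, and no 2 cells had identical counts. The label of DA neurons was met by most cells: *Slc6a3*, the dopamine transporter gene, was positive in 205 cells (98.1%), *Ddc*, which encodes the enzyme that forms dopamine, in 206 (98.6%), and *Th*, the rate-limiting enzyme gene of dopamine synthesis, in 198 (94.7%). *Pitx3*, a transcription factor of midbrain DA neurons, was positive in only 32 cells (15.3%). In 6 cells an astrocyte or oligodendrocyte list summed to more CPM (a cell's reads on a gene, scaled to its reads on all genes) than 4 neuron genes did, against the label. Among them, 3 cells of mouse 1 had 12673 to 17201 CPM of astrocyte genes and 7.36 to 136 CPM of neuron genes, and a cell each of mice 2, 3, and 7 made up the rest. These 6 cells had 1.47 to 541 CPM of *Th* and 1.47 to 63.2 CPM of *Slc6a3*, 2 of them (of mice 2 and 7) counted as GABA-marker cells, and none carried a glutamate marker. The comparisons over mice, the sets of cells defined by marker, and the correlations are given for all 209 cells and also for the other 203.

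A neuron releases glutamate from vesicles when it expresses a vesicular glutamate transporter, and some midbrain DA neurons are known to do so through the product of *Slc17a6* (VGLUT2). GABA is made from glutamate by the enzymes GAD67 (*Gad1*) and GAD65 (*Gad2*) and loaded into vesicles by VGAT (*Slc32a1*). Some DA neurons release GABA without this classical set, by taking it up from outside the cell and loading it with the vesicular monoamine transporter (*Slc18a2*), and *Aldh1a1* has been described as part of another route to GABA.

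The members lie on 3 chromosomes. In GRCm38 coordinates from RefSeq, *Slc17a6* spans chr7:51621830-51671126 (+ strand) and *Slc17a7* chr7:45163921-45176139 (+). *Slc17a8* spans chr10:89574020-89621249 (- strand). The 3 GABA genes share a chromosome, with *Gad2* at chr2:22621015-22693877, *Gad1* at chr2:70561303-70602014, and *Slc32a1* at chr2:158607260-158615747, all on the + strand. The 300-base windows around a RefSeq start of the 4 genes that carry the results below are printed 5′ to 3′ on the gene's strand, because these genes were combined differently from cell to cell. The windows (GRCm38.p6) are chr7:51621580-51621879 for *Slc17a6*, chr2:70561879-70562178 for *Gad1*, chr2:22622077-22622376 for *Gad2*, and chr2:158610508-158610807 for *Slc32a1*. Capitals mark matches on either strand to a GC box (GGGCGG) or a TATA box (TATAAA).
*Slc17a6*: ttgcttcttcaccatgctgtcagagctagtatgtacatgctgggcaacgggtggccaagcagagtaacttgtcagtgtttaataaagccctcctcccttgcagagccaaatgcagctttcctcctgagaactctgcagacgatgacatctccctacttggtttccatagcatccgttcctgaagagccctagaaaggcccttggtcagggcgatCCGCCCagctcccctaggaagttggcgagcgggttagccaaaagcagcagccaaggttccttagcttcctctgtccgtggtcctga
*Gad1*: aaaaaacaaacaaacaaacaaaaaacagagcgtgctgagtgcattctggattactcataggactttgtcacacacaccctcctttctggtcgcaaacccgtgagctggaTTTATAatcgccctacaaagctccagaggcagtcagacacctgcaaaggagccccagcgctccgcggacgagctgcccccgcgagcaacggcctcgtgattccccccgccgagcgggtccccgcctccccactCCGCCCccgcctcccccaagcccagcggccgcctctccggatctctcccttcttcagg
*Gad2*: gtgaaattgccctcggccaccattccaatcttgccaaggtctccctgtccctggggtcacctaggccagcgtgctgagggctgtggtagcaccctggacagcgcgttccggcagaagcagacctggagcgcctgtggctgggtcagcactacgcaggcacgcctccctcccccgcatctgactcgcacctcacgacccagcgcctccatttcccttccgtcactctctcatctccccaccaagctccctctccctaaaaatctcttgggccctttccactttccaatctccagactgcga
*Slc32a1*: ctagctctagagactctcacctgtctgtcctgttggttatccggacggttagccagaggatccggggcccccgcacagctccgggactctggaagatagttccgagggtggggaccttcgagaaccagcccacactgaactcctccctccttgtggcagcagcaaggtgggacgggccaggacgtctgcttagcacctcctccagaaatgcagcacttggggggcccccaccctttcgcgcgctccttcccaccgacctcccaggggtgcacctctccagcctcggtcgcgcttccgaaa
The *Slc17a6* window held 1 match to the GC box, and the *Gad1* window held 1 match to the GC box and 1 to the TATA box. All were on the strand opposite to the gene, and whether these letters act as promoter elements was not tested. The windows of *Gad2* and *Slc32a1* held neither, and none of the 4 held the E-box CAGCTG or the cAMP response element TGACGTCA. Of 32851 windows in the RefSeq table, 35.7% held the GC box, 13.6% the TATA box, 16.3% this E-box, and 1.79% the cAMP response element. G and C made up 53.7% of the *Slc17a6* window, 60.0% of that of *Gad1*, 61.3% of that of *Gad2*, and 63.3% of that of *Slc32a1*, against a median of 52.7% over all windows. CG pairs numbered 8, 21, 14, and 17 in the same order, against a median of 7.

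*Slc17a6* was the glutamate transporter gene of these cells. It was positive in 113 of 209 cells (54.1%, exact 95% binomial interval 47.1–61.0%) and in all 8 mice. In positive cells its median was 248 CPM and its highest value 1886 CPM. The positive share was 50%, 66.7%, and 58.8% in female mice 1, 4, and 6, and 70.6%, 26.7%, 50%, 62.5%, and 76.2% in male mice 2, 3, 5, 7, and 8. Mouse 3 had the lowest share and the sexes overlapped. *Slc17a7*, which encodes VGLUT1 of cortical neurons, had 0 reads in every one of the 209 cells, which allows a share of positive cells of up to 1.44% by the limit of 3 cells of 209 (exact 95% upper bound 1.75%). *Slc17a8*, the VGLUT3 gene known from some cholinergic, serotonin, and GABA neurons, was positive in 3 cells (1.44%), with 229 reads in a cell of mouse 1 and 85 and 127 reads in 2 cells of mouse 6. Those 3 cells were all *Slc17a6*+. Another 130 cells held 1 to 9 *Slc17a8* reads. All binomial intervals and limits here cover counting error only.

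*Gad2* was the most widely detected GABA gene, positive in 42 cells (20.1%, 14.9–26.2%) from 7 mice, with a median of 494 CPM in positive cells and a maximum of 5370 CPM. It held 1 to 9 reads in another 130 cells and none in 37. *Gad1* was positive in 15 cells (7.18%, 4.07–11.6%) from 5 mice, with a median of 624 CPM. No *Gad1* read was found in 184 cells, 10 had 1 to 9 reads, 4 had 12 to 95, and 11 had at least 100. *Slc32a1* was positive in 18 cells (8.61%, 5.18–13.3%) from 5 mice at a lower level, with a median of 36.4 CPM and a maximum of 145 CPM. Its calls lie closer to the limit of 10 reads, with 3 cells at 5 to 9 reads and 7 at 10 to 19. For *Gad2*, 15 cells lay at 5 to 9 reads and 8 at 10 to 19. When each cell was thinned to 500000 reads, 106 cells were *Slc17a6*+, 40 *Gad2*+, 14 *Gad1*+, and 13 *Slc32a1*+.

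Levels can be compared between genes only per length, here as CPM per kilobase of the union of annotated exons in GENCODE vM21, averaged over cells of a mouse by summing their reads. *Gad2* was at 43.0 ± 48.4 CPM per kb (mean ± SD, n = 8 mice) and *Slc17a6* at 38.5 ± 16.4, but *Slc17a6* was the higher of the pair in 5 of 8 mice. *Gad1* was at 7.08 ± 12.2 CPM per kb, below *Slc17a6* in 7 of 8 mice. *Slc32a1* (1.40 ± 1.301 CPM per kb) and *Slc17a8* (1.19 ± 1.62) followed. *Gad1* was above *Slc32a1* in 4 of 8 mice, and *Slc32a1* above *Slc17a8* in 3 of 8. *Gad2* and *Slc17a6*, *Gad1* and *Slc32a1*, and *Slc32a1* and *Slc17a8* thus changed places from mouse to mouse. *Th* was at 2581 ± 660 and *Slc6a3* at 818 ± 243 CPM per kb. Summed over a mouse's cells, *Gad2* ranged from 2.59 CPM in mouse 4 to 893 CPM in mouse 8, and *Gad1* from 0 in mice 4 and 6 to 265 CPM in mouse 1. *Slc17a6* ranged from 38.7 CPM in mouse 3 to 301 CPM in mouse 8. The GABA genes thus varied more between mice than *Slc17a6*.

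**Figure D1:**
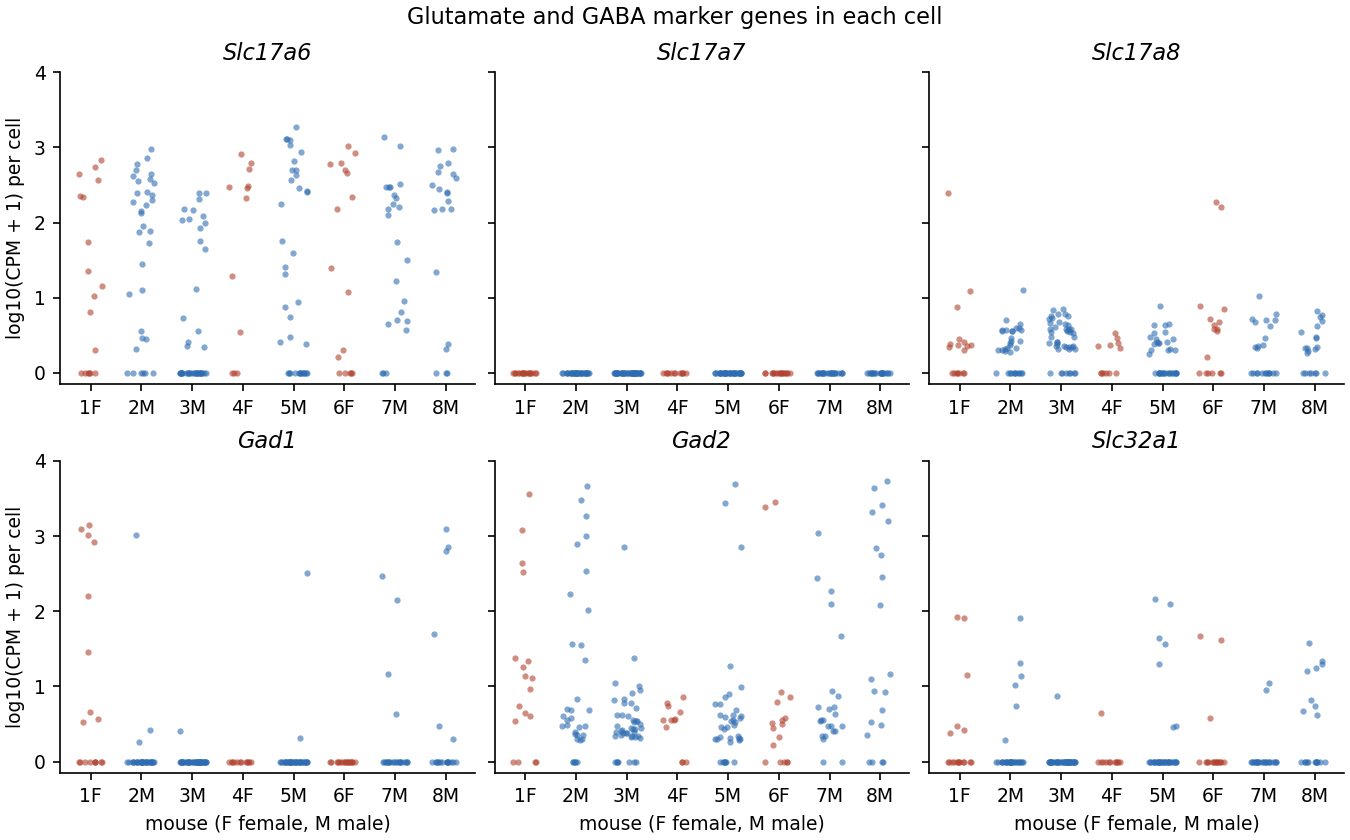
Each panel plots 1 gene, with log10(CPM + 1) of every cell on the vertical axis against the mouse it came from, female mice in red and male mice in blue. *Slc17a6* reached high values in all 8 mice, *Slc17a7* was at 0 in all 209 cells, and high *Gad1* cells were seen in 5 mice.

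Sorted by both kinds of marker, 80 cells carried a glutamate marker alone, 16 a GABA marker alone, 33 both, and 80 neither. Cells with both markers made up 15.8% of all cells (11.1–21.5%), 67.3% of the 49 GABA-marker cells (52.5–80.1%), and 29.2% of the 113 glutamate-marker cells (21.0–38.5%). Over mice, the glutamate-marker share was 57.7 ± 15.6% (mean ± SD, n = 8), the GABA-marker share 25.2 ± 20.6%, the share with both 16.8 ± 13.5%, and the share with neither 33.9 ± 19.9%. Mouse 8 had the highest share with both, 9 of its 21 cells (42.9%). Mouse 3 had 1 such cell of 45 (2.22%), and 32 of its cells (71.1%) carried neither marker. Mouse 4 had no GABA-marker cell among 12, which allows a share of up to 25% by the limit of 3 cells (exact 95% upper bound 26.5%). Without the 6 cells of high glial marker level, 55.7% of 203 cells carried a glutamate marker, 23.2% a GABA marker, 16.3% both, and 37.4% neither.

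**Figure D2:**
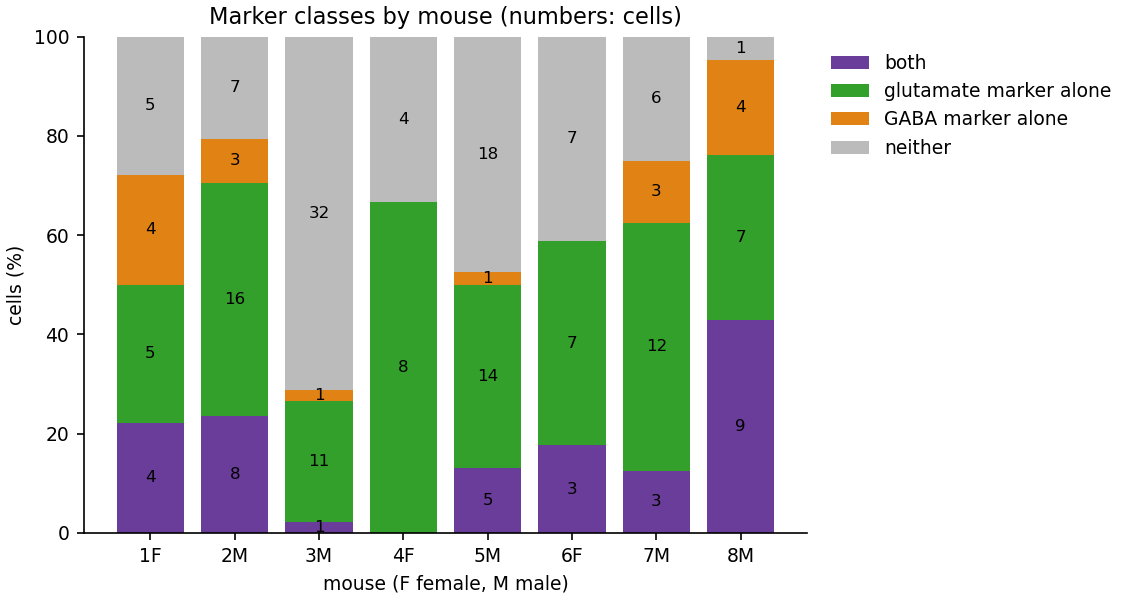
Stacked bars give the percent of each mouse's cells in the 4 marker classes, with the number of cells printed in each segment. Mouse 3 was mostly without either marker (32 of 45 cells), and mouse 8 had 1 such cell of 21.

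Within a mouse, glutamate-marker cells were compared with the remaining cells for how often they carried a GABA marker. The mean GABA-marker share was 27.3 ± 18.3% (SD, n = 8 mice) with a glutamate marker and 24.5 ± 28.3% without one. The difference was 2.83 ± 17.2 percentage points, positive in 4 mice, negative in 2, and 0 in 2 (exact sign-flip permutation test, two-sided, p = 0.656, adjusted p = 0.656 over 5 tests). The value moved with the cells and mice used. With cells down to 100000 reads it was 12.0 percentage points (exact permutation p = 0.0156, adjusted p = 0.0781), with cells thinned to 500000 reads 6.10, and with the 203 cells 2.05, while it was 0.22 without mouse 5 and -1.06 without mouse 6. As a class, GABA markers were not detectably more frequent with a glutamate marker at this number of mice. The 3 GABA genes, taken one by one, were distributed differently, as follows. These counts describe the cells and carry no test, because the division was made after the values were seen.

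Every *Slc32a1*+ cell was also *Slc17a6*+ (18 of 18 cells from 5 mice, exact 95% interval 81.5–100%). Their *Slc17a6* counts ran from 14 to 953 reads with a median of 357. In the 96 *Slc17a6*- cells, *Slc32a1* never exceeded 6 reads. *Gad2* was positive in 13 of these 18 cells, and in all 12 cells that were *Gad2*+ and *Slc32a1*+ but *Gad1*-, *Gad2* lay between 17.7 and 5370 CPM with a median of 2607. With cells down to 100000 reads, 20 of 21 *Slc32a1*+ cells were *Slc17a6*+, at a limit of 50 reads for both genes 3 of 4 were, and at 1 read 29 of 35 were.

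Most *Gad1*+ cells, by contrast, were *Slc17a6*-, although the interval of the positive share includes the value of cells without any GABA marker. Of 15 *Gad1*+ cells, 4 were *Slc17a6*+ (26.7%, 7.79–55.1%), against 29 of 34 GABA-marker cells without *Gad1* (85.3%, 68.9–95.0%) and 80 of 160 cells without any GABA marker (50%, 42.0–58.0%). The 11 cells with at least 100 *Gad1* reads (103–1048 reads, from 5 mice) held 0 to 7 *Slc17a6* reads and 0 to 6 *Slc32a1* reads. All 11 were *Gad2*+, with 12 to 443 reads. The other 4 *Gad1*+ cells held 12 to 95 *Gad1* reads and 11 to 155 *Slc17a6* reads. Only 1 cell was positive for *Gad1* and *Slc32a1* together, a cell of mouse 1 with 95 *Gad1* reads, 50 *Slc32a1* reads, and 33 *Slc17a6* reads. At a limit of 50 reads for both genes, 1 of 13 *Gad1*+ cells was *Slc17a6*+. At 1 read, where the limit also takes in cells with single reads, 17 of 25 were. The cell of mouse 7 with high oligodendrocyte marker level is 1 of the 11, with 239 *Gad1* reads. Without the 6 cells, 4 of 14 *Gad1*+ cells were *Slc17a6*+ (28.6%), against 29 of 33 GABA-marker cells without *Gad1* (87.9%) and 80 of 156 cells without any GABA marker (51.3%), while all 18 *Slc32a1*+ cells remained.

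The remaining cells with a GABA marker fell into 2 smaller sets. In 17 cells from 5 mice *Gad2* was the only GABA gene, at a median of 125 CPM (11.4–3005), so some lay near the limit of 10 reads. Of these 17, 12 were *Slc17a6*+ (70.6%, 44.0–89.7%), or 12 of 16 (75%) without the cell of mouse 2 with high astrocyte marker level. In 5 cells from 4 mice *Slc32a1* was positive alone, and all 5 were *Slc17a6*+. Mice differed in which set they held: *Gad1*+ cells numbered 6 in mouse 1, 4 in mouse 8, 3 in mouse 7, and 1 each in mice 2 and 5, and mice 3, 4, and 6 had none. Cells with *Gad2* and *Slc32a1* but no *Gad1* numbered 4 in mouse 8, 3 each in mice 2 and 5, and 1 each in mice 1 and 6. The median reads per cell were 741816 in *Gad1*+ cells, 731804 in the *Gad2* and *Slc32a1* set, 738084 with *Gad2* alone, 635660 with *Slc32a1* alone, and 786180 with no GABA marker. The median number of genes detected was 8015, 8241, 8955, 8330, and 9354.5 in the same order, and the part of depth and detection in these sets was not tested.

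**Figure D3:**
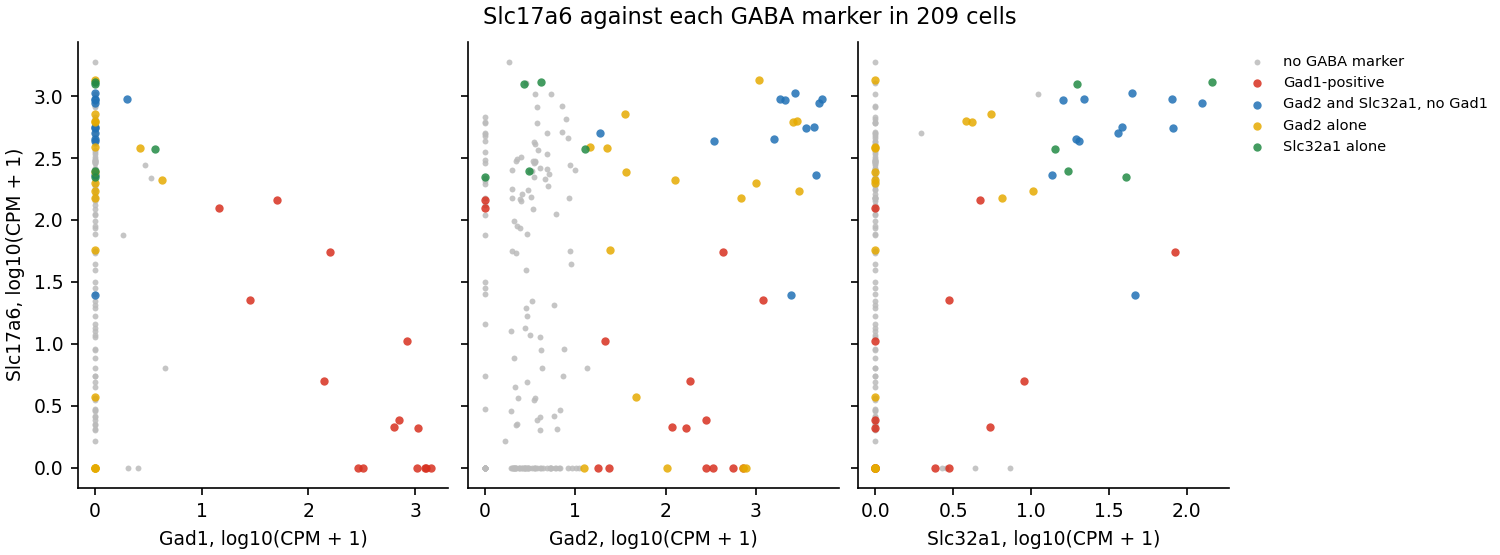
Each point is 1 of 209 cells, with log10(*Slc17a6* CPM + 1) on the vertical axis against log10(CPM + 1) of *Gad1*, *Gad2*, and *Slc32a1*, colored by which GABA markers reached 10 reads (a *Gad1*+ cell may carry the others too). The 11 cells with at least 100 *Gad1* reads held 0 to 7 *Slc17a6* reads and lie low for *Slc17a6*, and the 18 cells positive for *Slc32a1* all lie above 0.

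The genes most like each member were taken from the 12105 genes positive in 10 cells or more, by Pearson correlation of log2(CPM + 1) over the 209 cells after each mouse's mean was removed. These correlations describe cells that share libraries, depth, and mice, and they carry no test. For *Slc17a6* they were *Rmst*, a long noncoding RNA (r = 0.58), *Htr2c*, the serotonin 2C receptor (0.54), *Adcyap1*, the neuropeptide PACAP (0.54), *Epb4.1l3*, a membrane skeleton protein (0.51), and *Hs6st2*, a heparan sulfate sulfotransferase (0.49). *Htr2c* was positive in 56 cells, 52 of them *Slc17a6*+, and *Adcyap1* in 65 cells, 57 of them *Slc17a6*+. For *Gad1* the values were higher, among them *Fam159b* (0.87), *Otof*, a calcium sensor of vesicle fusion (0.80), *Six6*, a homeobox factor of the developing hypothalamus and eye (0.80), and *Msn*, which links the membrane to actin (0.79). *Otof* and *Six6* were each positive in 15 cells, 13 of them *Gad1*+.

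*Gad2* and *Slc32a1* shared their nearest genes. *Crhbp*, which encodes a protein that binds corticotropin-releasing hormone, was first for both (r = 0.60 and 0.66), each was the other's second (0.57), and *Gm14204* came next for both (0.51 and 0.52). The next for *Gad2* were *Pcdh20*, a protocadherin (0.46), and *Gm13629* (0.46). The next for *Slc32a1* were *Htr2c* (0.49) and *Gm13629* (0.41). *Gad1* correlated with *Slc32a1* at 0.01 and with *Gad2* at 0.27. *Slc17a6* correlated with *Gad1* at -0.26, with *Gad2* at 0.10, and with *Slc32a1* at 0.30. With *Slc6a3*, the value was -0.22 for *Slc17a6*, -0.11 for *Gad1*, -0.40 for *Gad2*, and -0.21 for *Slc32a1*. With *Th*, it was -0.25, -0.03, -0.21, and -0.24 in the same order. Over the 203 cells, the values with *Slc6a3* were -0.45, -0.20, -0.48, and -0.36 and those with *Th* -0.38, -0.07, -0.21, and -0.31. Of the 5 genes nearest to each member, 5 stayed for *Gad1*, with *Six6* then first (0.87), and 4 stayed for each of the others.

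*Th* and *Slc6a3* were then compared between cells with and without each kind of marker. First, single cells were averaged on the log2(CPM + 1) scale within each mouse that had at least 3 cells of each class, which gave 8 mice for the glutamate markers and 6 (mice 1, 2, 5, 6, 7, and 8) for the GABA markers. The exact sign-flip permutation test over mice was two-sided, and 5 tests were adjusted together by Benjamini-Hochberg. Second, reads were summed per mouse and class and fitted over all genes with edgeR, where a sum follows the cells with most reads.

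In glutamate-marker cells, *Th* was higher in some mice and lower in others. The log2 difference was -5.44 in mouse 4, -3.59 in mouse 6, -1.51 in mouse 5, and -0.39 in mouse 2, and 0.18, 0.31, 0.76, and 0.86 in mice 3, 7, 8, and 1. The mean was -1.10 ± 2.29 (SD, n = 8), lower in 4 of 8 mice (exact permutation p = 0.273, adjusted p = 0.459). Cells with a glutamate marker spanned a wide range of *Th*, at 1.12 to 15174 CPM in mouse 4 and 3.79 to 9932 CPM in mouse 6. Those without one were at 5331 to 11194 and 3942 to 9485 CPM. The log2 means with the marker in these mice thus mix cells near 0 with cells of high *Th*. *Slc6a3* differed by -0.56 ± 1.61, lower in 5 of 8 mice (exact permutation p = 0.367, adjusted p = 0.459), with mouse 1 at 2.69 and mouse 4 at -2.35. Within lane 1, which holds mice 1, 2, and 3 for this comparison, both means were above 0 (0.22 for *Th* and 0.96 for *Slc6a3*), and in lane 2, with cells of the other 5 mice, both were below 0 (-1.87 and -1.36). The 3 cells of mouse 1 with high astrocyte marker levels were all in the class without a glutamate marker. Over the 203 cells, the mouse 1 difference was -1.77 for *Th* and 0.31 for *Slc6a3*. Over mice, *Th* then differed by -1.64 ± 2.04, lower in 7 of 8 (exact permutation p = 0.0391, adjusted p = 0.0651), and *Slc6a3* by -1.07 ± 0.92, lower in 7 of 8 (exact permutation p = 0.0234, adjusted p = 0.0651).

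In GABA-marker cells, *Slc6a3* was lower in 5 of 6 mice. The log2 difference was -2.73, -2.003, -1.82, -1.73, and -1.38 in mice 5, 2, 6, 7, and 8, and 1.06 in mouse 1. The mean was -1.44 ± 1.301 (SD, n = 6; exact permutation p = 0.0625, adjusted p = 0.312, where 6 mice allow no p below 0.0312). In mouse 1, the mean over cells without a GABA marker was 8.39, below the 10.6 to 11.5 of the other mice, and its 3 cells of high astrocyte marker level were in that class, at 1.47, 1.69, and 46.7 CPM of *Slc6a3*. The median *Slc6a3* of mouse 1 was 793 CPM over its 10 cells without a GABA marker and 844 CPM over its 8 cells with one. In the 203 cells, the mouse 1 difference was -1.36 and *Slc6a3* was lower in 6 of 6 mice (mean -1.63 ± 0.59, exact permutation p = 0.0312, the smallest that 6 mice allow, adjusted p = 0.0651). Within lane 1 (mice 1 and 2) the mean difference was -0.47 and within lane 2 (mice 5, 6, 7, and 8) it was -1.92. *Th* differed by -0.92 ± 2.09, lower in 4 of 6 mice (exact permutation p = 0.344, adjusted p = 0.459), with values from -3.47 in mouse 5 to 1.82 in mouse 1, and means of -0.59 in lane 1 and -1.08 in lane 2. With the 203 cells *Th* differed by -1.06 ± 1.62, with mouse 1 at -0.28 (exact permutation p = 0.188, adjusted p = 0.234).

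**Figure D4:**
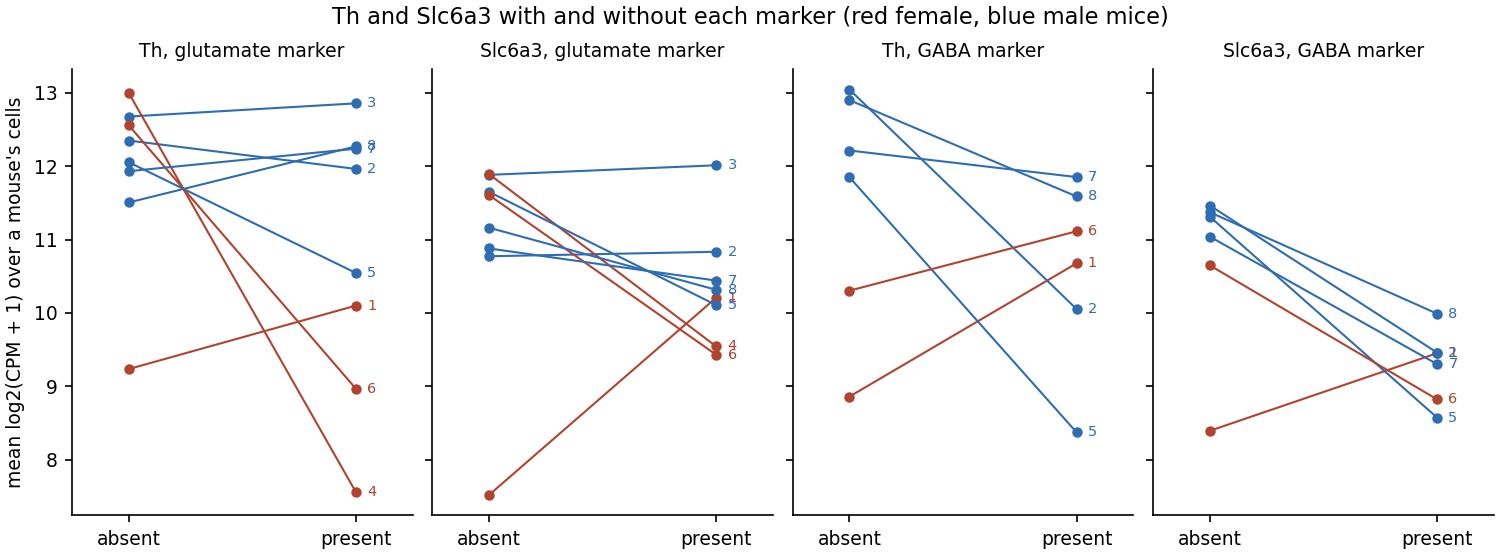
Lines join the mean log2(CPM + 1) of *Th* or *Slc6a3* over cells without and with the marker named above each panel, 1 line per mouse (number at the right), red for female and blue for male mice. *Slc6a3* was lower with a GABA marker in 5 of 6 mice, while lines for *Th* crossed.

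In sums of reads, *Slc6a3* fell in GABA-marker cells of all 6 mice. It was 1112, 1347, 801, 740, 1188, and 1815 CPM with a GABA marker in mice 1, 2, 5, 6, 7, and 8, and 2522, 3903, 3182, 3451, 3107, and 3147 CPM without one. The groups did not overlap. The log2 fold change was -1.47 ± 0.22 (SE; edgeR quasi-likelihood test, adjusted p = 0.0409), and *Slc6a3* was the only gene that passed among the 12175 tested, or 0.00821%. With the mouse as a block the fold change was -1.52 (adjusted p = 0.0490), and *Cplx1*, a regulator of vesicle fusion, also passed (-1.66, adjusted p = 0.0335). By DESeq2 it was -1.44 (adjusted p = 7.87e-07). In the 203 cells it was -1.46 ± 0.22 (edgeR, adjusted p = 0.0485), again the only gene that passed. The call held without mouse 8 and was lost without any other mouse: without 1 mouse at a time the fold change was -1.63 to -1.36 and the adjusted p was 0.0512 without mouse 1, 0.155 without mouse 2, 0.166 without mouse 5, 0.0750 without mouse 6, 0.127 without mouse 7, and 0.0497 without mouse 8. With 50 reads for a positive cell it was -1.69 (adjusted p = 0.137), and with 1 read -0.25 (adjusted p = 0.999).

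*Th* was 4087, 3876, 790, 2226, 5361, and 4174 CPM with a GABA marker in the same order of mice, and 5412, 10596, 4988, 4847, 6827, and 8114 CPM without one. It was lower in all 6 mice, although the groups overlapped, and it did not pass over all genes (log2 fold change -0.996 ± 0.37, SE; adjusted p = 0.809). *Slc17a6* was higher with a GABA marker in 5 of 6 mice and did not pass (0.92 ± 0.35, adjusted p = 0.809). *Slc17a8* was at 0.17 ± 1.27 (adjusted p = 0.993). The summed level of 5 oligodendrocyte markers was 6.78 to 4209 CPM over mice in GABA-marker cells and 8.19 to 2200 CPM in the others. That of 6 astrocyte markers was 84.4 to 967 and 482 to 4030 CPM. Of the oligodendrocyte genes, *Mbp* was positive in 38.8% of GABA-marker cells and 23.1% of the others, *Mag* in 1 and 2 cells, *Mobp* in 0 and 2, and *Mog* in none. Of the astrocyte genes, *Slc1a2* was positive in 65.3% and 94.4%, *Aldoc* in 51.0% and 64.4%, and *Gja1*, *Slc1a3*, *Aqp4*, and *Gfap* in at most 4 cells of either class. Microglial and endothelial lists stayed under 3 CPM. The summed level of 6 hypothalamic peptide genes was 2.83 to 20.6 CPM with a GABA marker and 3.39 to 374 CPM without one. Of these genes, *Pomc* was positive in 18.4% of GABA-marker cells and 16.9% of the others and *Ghrh* in 12.2% and 4.38%. *Agrp* and *Sst* were positive in 0 and 5 cells each, *Hcrt* in 0 and 1, and *Pmch* in none. The part of these levels in the comparison was not tested beyond leaving out the 6 cells above.

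The other genes of dopamine, glutamate, and GABA metabolism were counted in 3 lists. Of 14 dopamine genes, all tested, 12 were below 0 in GABA-marker cells with a median log2 fold change of -0.96, against 0.05 over all genes, and *Slc6a3* alone passed. *Ddc* was at -0.92 ± 0.19 (edgeR, adjusted p = 0.142). It passed by DESeq2 (adjusted p = 0.00383), the tool with more false calls but also more changes recovered on simulated counts. *Slc18a2*, the vesicular monoamine transporter gene, was at -0.92 ± 0.25 (edgeR, adjusted p = 0.601). *Slc18a2* was lower in all 6 mice, at 538, 749, 1257, 817, 1427, and 1481 CPM with a GABA marker and 1476, 1539, 2691, 1714, 2099, and 2319 CPM without one. *Aldh1a1* was at -2.02 ± 0.93 (adjusted p = 0.855). It was 2.7 CPM with a GABA marker and 2592 CPM without one in mouse 6, but 1770 and 510 CPM in mouse 1. Of 11 genes for GABA supply, uptake, and breakdown, 8 were tested and none passed (median 0.27), and of 15 genes for glutamate supply and uptake, 13 were tested and none passed (median -0.13). *Abat*, the GABA transaminase that breaks GABA down, was at 0.63 ± 0.24 (adjusted p = 0.809).

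**Figure D5:**
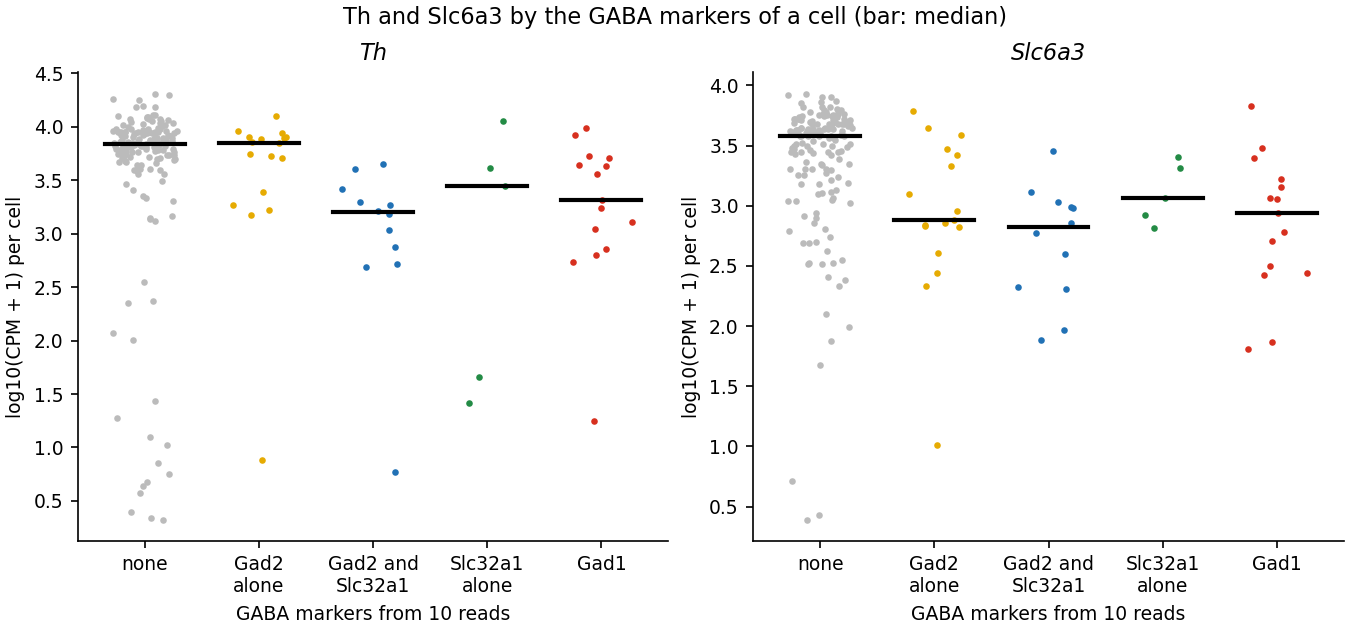
Log10(CPM + 1) of *Th* and of *Slc6a3* in single cells, grouped by which GABA markers reached 10 reads, with a black bar at the median. *Slc6a3* medians were 3812 CPM with no GABA marker and 762 CPM with *Gad2* alone, while *Th* medians of the same sets were 6855 and 7064 CPM.

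Which GABA genes a cell carried was accompanied by different *Th* levels. Cells with *Gad2* alone had a median *Th* of 7064 CPM, near the 6855 CPM of cells without a GABA marker, and 16 of the 17 had at least 1000 CPM. The median of *Th* was lower in the cells of this set with more *Gad2*. The ranges overlapped only through the cell of mouse 2 with high astrocyte marker level, at 6.64 CPM of *Th*. The next lowest *Th* among cells below 1000 CPM of *Gad2* was 5126 CPM. The 13 cells below 1000 CPM of *Gad2* had a median *Th* of 7659 CPM (6.64–12518), and the 4 cells above it, from 4 mice, had a median of 1750 CPM (1501–2478). Cells with *Gad2* and *Slc32a1* had a median of 1588 CPM (4.87–4472) and 8 of 12 reached 1000 CPM. Of these 12, 10 had at least 1000 CPM of *Gad2*, with a median *Th* of 1694 CPM, and the part of the *Gad2* level in this contrast was not tested. *Gad1*+ cells had a median of 2049 CPM (16.5–9803) and 11 of 15 reached 1000 CPM. The 5 cells with *Slc32a1* alone had a median of 2786 CPM (25.2–11374), and 3 of them reached 1000 CPM. Median *Slc6a3* was 762, 660, 867, and 1155 CPM in these 4 sets, and 3812 CPM without a GABA marker. Over the 203 cells, median *Th* was 7158 CPM with *Gad2* alone, 2815 CPM in *Gad1*+ cells, and 6952 CPM without a GABA marker, and median *Slc6a3* was 835, 1000.2, and 3820 CPM. These are cells pooled over mice and are given as a description. Among the 181 cells with at least 1000 CPM of *Th*, 93 carried a glutamate marker (51.4%, 43.9–58.9%), 38 a GABA marker (21.0%), and 26 both (14.4%). Among the 28 cells below it, 20 carried a glutamate marker (71.4%, 51.3–86.8%), 11 a GABA marker (39.3%), and 7 both (25%). All 6 cells of high glial marker level were among these 28, and they included the 4 that carried neither marker. Of the 22 others, 20 carried a glutamate marker (90.9%, 70.8–98.9%), 9 a GABA marker (40.9%), 7 both (31.8%), and 0 carried neither (exact 95% upper bound 15.4%).

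Between glutamate-marker cells and the others, 2 of 12276 genes passed (0.0163%), and both rose: *Htr2c* and *Nrp2*, a semaphorin receptor, named here because the count is small. *Htr2c* was 15.1 to 214 CPM with a glutamate marker and 0 to 6.33 CPM without one (log2 fold change 5.33 ± 0.74, adjusted p = 0.00475). *Nrp2* was 13.7 to 54.8 CPM with a glutamate marker and 0.167 to 4.26 CPM without one (4.37 ± 0.62, adjusted p = 0.00475). Both were higher in 8 of 8 mice and passed without any 1 mouse. When the 203 cells were used, 7 genes passed by edgeR, all higher, among them *Htr2c* (adjusted p = 0.00160) and *Nrp2* (adjusted p = 0.00175). With 50 reads for a positive cell neither passed (adjusted p = 0.0569 and 0.119). With the mouse as a block neither passed (adjusted p = 0.152 and 0.0973), and 4 other genes did: *Crhbp* rose (7.34, adjusted p = 0.00898), *Adamts2*, a procollagen protease, rose (4.28, adjusted p = 0.0400), *Ndnf*, a secreted neurotrophic factor, fell (-3.12, adjusted p = 0.0316), and *Gad1* fell.

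*Gad1* was 519, 107, 10.1, 50.9, and 468 CPM in cells without a glutamate marker in mice 1, 2, 5, 7, and 8, and 17.5, 0.0992, 0, 1.17, and 3.78 CPM in those with one. It was at or near 0 in both classes in mice 3, 4, and 6. The log2 fold change was -5.78 ± 1.71 (adjusted p = 0.500), and -6.66 ± 0.78 with the mouse as a block (adjusted p = 0.0400). Because the lower class is at or near 0 in most mice, the size depends on the prior count of the fit. *Gad2* went the other way, higher with a glutamate marker in 6 of 8 mice, at 491, 412, 3.88, 2.12, 389, 410, 72.1, and 1107 CPM against 49.0, 92.7, 31.3, 3.52, 24.0, 1.67, 62.1, and 173 CPM in mice 1 to 8. It did not pass (2.64 ± 0.96, adjusted p = 0.625). *Slc32a1* was too low for this fit. *Slc6a3* was at -0.77 ± 0.26 (adjusted p = 0.558) and *Th* at -0.25 ± 0.26 (adjusted p = 0.895). None of the 14 dopamine, 13 glutamate, and 8 GABA genes tested passed, with medians of -0.15, 0.05, and -0.36 against -0.04 over all genes. *Slc18a2* was at -0.48 ± 0.22 (adjusted p = 0.751) and *Aldh1a1* at -0.43 ± 0.48 (adjusted p = 0.904). The summed level of the hypothalamic peptide genes was 6.31 to 559 CPM over mice with a glutamate marker and 6.33 to 20.5 CPM without one. *Pomc* was positive in 19.5% and 14.6% of these cells, *Ghrh* in 7.96% and 4.17%, *Agrp* in 2 and 3 cells, *Sst* in 5 and 0, *Hcrt* in 1 and 0, and *Pmch* in none. The astrocyte list summed to 494 to 724.4 CPM with a glutamate marker and 210 to 4554 CPM without one, and the oligodendrocyte list to 14.7 to 99.5 CPM (median 55.2) and 0 to 2865 CPM (median 32.2). Of the oligodendrocyte genes, *Mbp* was positive in 38.1% and 13.5% of these cells, *Mag* in 0 and 3 cells, *Mobp* in 1 and 1, and *Mog* in none. Of the astrocyte genes, *Slc1a2* was positive in 89.4% and 85.4%, *Aldoc* in 54.9% and 68.8%, and *Gja1*, *Slc1a3*, *Aqp4*, and *Gfap* in at most 4 cells of either class. The part of these levels was not tested beyond leaving out the 6 cells above.

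The sexes did not differ detectably in these markers at this number of mice. The glutamate-marker share was 58.5 ± 8.34% in 3 female mice and 57.2 ± 19.7% in 5 male mice (exact permutation test, two-sided, p = 1, adjusted p = 1). The GABA-marker share was 20.7 ± 22.4% in 3 female and 27.9 ± 21.7% in 5 male mice (exact permutation p = 0.714, adjusted p = 1). Over the 203 cells, the male minus female difference was -3.55 percentage points in the first share and 3.20 in the second (exact permutation p = 0.893 and 0.857, adjusted p = 0.893 for both). In the fit of sums over all genes, 5 of 15528 genes passed (0.0322%): *Xist*, which silences an X chromosome in females, was lower in male mice (0.00644% of genes), and the Y-linked *Ddx3y*, *Uty*, *Eif2s3y*, and *Kdm5d* were higher (0.0258%), each in the direction of the sex labels. None of the 5 members tested passed. The largest difference was that of *Slc17a8* (male minus female -2.85 ± 0.84, adjusted p = 0.510), at 19.4, 0.824, and 16.4 CPM in female mice 1, 4, and 6 and 1.19 to 2.19 CPM in male mice. Mice 1 and 6 are those that held the 3 *Slc17a8*+ cells. *Slc17a6* was at -0.18 ± 0.50 (adjusted p = 0.969), *Gad1* at -1.34 ± 1.98 (0.909), *Gad2* at 0.82 ± 1.24 (0.914), and *Slc32a1* at -0.17 ± 1.27 (0.989). Female mice were P25 to P36 and male mice P24 to P28, ages that overlapped in part. Male mice 3, 5, and 8 were run on a C1 machine that ran no female mouse. With 8 mice, age and machine cannot be fully separated from sex.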

How the data were processed

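Cells were single tdTomato+ cells from 8 mice, sequenced as C1 SMARTer libraries. The deposited read counts per gene are raw: the authors trimmed with Trimmomatic 0.3.2, aligned with TopHat2 2.1.1 to GRCm38, counted RefSeq genes with featureCounts 1.5.0-p3, and discarded reads matching several genes. These are reads, not molecules, and a strand setting is not given in the sources used here. Here, 5721 of 47082 table rows with no value in any cell were dropped, as were spike-in (5.20e-06% of reads) and transgene rows (0.00456%). Further deposited tables of gene, cell, and alignment descriptions were not used.

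Groups were the sex labels, and the replicate was the mouse. The members, the lists, and the tests were chosen with earlier results of these data known. Named genes were the members, *Th*, *Slc6a3*, list genes past the threshold with *Slc18a2* and *Aldh1a1*, and the 5 genes most like each member. A gene among those most like *Gad1* and the values of an oligodendrocyte marker are not reported here. *Htr2c*, *Nrp2*, *Ddc*, *Abat*, *Cplx1*, *Crhbp* as a called gene, *Adamts2*, *Ndnf*, and the 5 sex genes were added after their values were seen.

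CPM used reads on genes. Single-cell means used log2(CPM + 1). For comparisons over genes, reads were summed per mouse and class (at least 3 cells each) and fitted by edgeR 4.0.16 under R 4.3.3 (TMM, filterByExpr, quasi-likelihood, Benjamini-Hochberg threshold 0.05). SE is the fold change divided by the root of F. The genes that define a class were not tested in it. Both classes come from the same mouse, so mouse as a block was an alternative: after the class mean was removed, classes of a mouse correlated at 0.029–0.280 (glutamate markers) and 0.057–0.174 (GABA markers). DESeq2 1.42.0 was the other tool, and both were tested on simulated data, where DESeq2 made more false calls than edgeR in each of the 3 comparisons. Permutation tests and intervals used Python 3.11.15 and scipy 1.17.1. Alternatives were 1 or 50 reads for a positive cell, cells thinned to 500000 reads or kept from 100000 reads, a pseudocount of 10 CPM, single lanes, the C1 machine that ran both sexes, no filter, and each mouse left out. Cells with at least 1000 CPM of *Th*, cells in which neither the astrocyte nor the oligodendrocyte list summed above the neuron list (*Snap25*, *Syt1*, *Rbfox3*, *Stmn2*), and all alternatives for overlaps of single genes, were added after seeing the data. Sequences and positions came from RefSeq on GRCm38.p6.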

Additional observations from a re-analysis of the deposited data

Results flagged for a closer look

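The difference in *Slc6a3* between GABA-marker and other cells was 1.06 in mouse 1 on the log2 scale, while the other 5 mice lay between -2.73 and -1.38, so mouse 1 stands apart from the rest by Dixon's criterion for 6 values. Of the 10 cells of mouse 1 without a GABA marker, 3 had 1.47, 1.69, and 46.7 CPM of *Slc6a3* and more CPM of astrocyte than of neuron markers. In the 203 cells without such glial marker levels, mouse 1 was at -1.36, within the range of the other 5 mice (-2.73 to -1.07), and no mouse stood apart by the criterion. It was 1 of 14 sets of values looked at in this way, and chance marks about 1 in 20.

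The difference in *Th* between GABA-marker and other cells was above 0 in both female mice with enough cells (0.81 and 1.82) and below 0 in all 4 male mice (-3.47 to -0.36). The male minus female difference was -3.35 (exact permutation test over 6 mice, two-sided, p = 0.133, adjusted p = 0.500 over 5 tests). That p is the smallest that 2 mice against 4 can give. In the 203 cells, mouse 1 was at -0.28, mouse 6 at 0.81, and the male mice at -3.47 to 0.19, so the sexes overlapped.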

How the results depend on the processing

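Of 202 recomputed values of the 14 main results, 162 kept their direction and their side of the threshold (for shares, stayed within 1 SD over mice, and for counts of genes, within 1.5 times the count). No alternative moved a permutation test past the threshold. With 1 read for a positive cell, 86.1% of cells carried a glutamate marker, 85.2% a GABA marker, 72.7% both, and 1.44% neither, and the difference in GABA-marker share turned to -7.37 percentage points, as it did with 50 reads (-2.54). It was 12.0 with cells from 100000 reads (exact permutation p = 0.0156, adjusted p = 0.0781) and 6.10 with thinned cells. Without 1 mouse at a time it ran from -1.06 to 6.62. In lane 1 alone, *Th* and *Slc6a3* differed by 0.22 and 0.96 in glutamate-marker cells. The male minus female difference in glutamate-marker share was 10.3 with 1 read (exact permutation p = 0.0357, adjusted p = 0.0714). It was 2.67 with 50 reads, 4.81 with cells from 100000 reads, 8.05 on the machine with both sexes, and 6.57 with *Th*-rich cells, and -6.06 to 6.32 without 1 mouse at a time. The same difference in GABA-marker share was 9.34 with 1 read (exact permutation p = 0.0714, adjusted p = 0.0714). It was -1.83 with *Th*-rich cells and -3.15 to 19.1 without 1 mouse at a time.

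For glutamate-marker against other cells, 4 genes passed with mouse as the replicate block, 58 by DESeq2, 5 with no filter, 15 with 1 read, 7 in the 203 cells with more neuron than glial marker reads (chosen after seeing the data), and 2 to 8 without 1 mouse at a time, with 8 without mouse 3 and 5 without mouse 4 or mouse 7. For GABA-marker against other cells, the counts were 2 with the replicate block, 54, 3, 0 (488 genes at an unadjusted p under 0.05), 9 with 50 reads, and 0 to 6 without 1 mouse at a time: 6 without mouse 1, 4 without mouse 6, 3 without mouse 7, and none without mouse 2 (602 unadjusted) or mouse 5 (606). Between the sexes, 190 genes passed by DESeq2 and none on the machine with both sexes (565 unadjusted), and 4 to 5 without 1 mouse at a time. The cause of these shifts was not tested. The block changed no other call of a member than that of *Gad1*.

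The log2 fold change of *Slc17a8* in GABA-marker cells turned to -0.63 with the block, -0.11 in the 203 cells, and -2.49 with 50 reads, and ran from -2.60 to 1.63 without 1 mouse at a time. That of *Slc17a6* turned to -0.39 with 1 read. Between the sexes, *Gad1* ran from -2.56 to 12.5 without 1 mouse at a time (the latter without mouse 1), *Gad2* from -0.16 (without mouse 8) to 1.299, *Slc17a6* from -0.42 to 0.062 (without mouse 3), and *Slc32a1* from -0.71 to 0.98. *Gad1* was too low to be fitted between glutamate-marker and other cells with 1 or 50 reads, in the 203 cells, and without mouse 1, 2, 5, 7, or 8, as was *Slc17a8* in GABA-marker cells with 1 read. Positive cells with only 10 to 19 reads numbered 10 of 113 for *Slc17a6*, 8 of 42 for *Gad2*, 2 of 15 for *Gad1*, and 7 of 18 for *Slc32a1*.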
